A study of Mus musculus with 6 samples.

Results

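Basal antioxidant enzymes were followed in mouse liver through 10 of the 55357 genes counted: Cat, Sod1, Sod2, Gpx1, Gpx3, Gpx4, Prdx1, Prdx3, Prdx5 and Prdx6. They were taken from a list of enzyme names, matched by Ensembl identifier, and no threshold on their values was applied. The study asked how esculetin, a plant-derived dihydroxycoumarin, acts on lipid handling after lipid-rich meals. Liver RNA was sequenced in 2 groups of 3 libraries. All mice were wild-type C57BL6/J males of 8 to 9 weeks, received a control diet with 10% of kcal from fat for 4 days and then a high-fat diet (HFD) with 60% of kcal from fat for 3 days, and were gavaged daily throughout the 7 days. The vehicle group (HFD) received 2.5% Tween-80. The esculetin group received esculetin, for which the sample titles give 180 mg/kg/d and the treatment field gives 90 mg/kg/d, so the dose of these libraries is uncertain. Each library was a pool of livers from 2 mice, so a p-value here measures only the spread between 3 such pools per group. No liver from mice kept on the control diet was analysed here, and the comparison is therefore esculetin against vehicle within HFD feeding.

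Oxygen-consuming enzymes and the respiratory chain leak superoxide, which superoxide dismutases turn into hydrogen peroxide. Catalase splits hydrogen peroxide without a cofactor to be recycled, whereas glutathione peroxidases spend glutathione and most peroxiredoxins spend thioredoxin, both of which are regenerated with NADPH. The liver is rich in these enzymes because its peroxisomes and mitochondria burn fatty acids, and the genes are called basal because hepatocytes transcribe them without added stress.

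GPX1, GPX3 and GPX4 are selenoproteins: a UGA codon within the reading frame, normally a stop, is read as selenocysteine, the residue that reacts with the peroxide. The codon was located in the coding exons of each canonical transcript on GRCm39, and each reading frame held 1 such TGA before its last codon. It was codon 47 of Gpx1 in exon 1 (chr9:108216635-108216667), codon 73 of Gpx3 in exon 2 (chr11:54798067-54798099) and codon 73 of Gpx4 in exon 3 (chr10:79890556-79890588). These stretches are shown because they set the 3 peroxidases that need selenium apart from the other 7 enzymes. All lie on the plus strand and are written 5′ to 3′ with the selenocysteine TGA in capitals.
Gpx1: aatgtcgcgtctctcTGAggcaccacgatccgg
Gpx3: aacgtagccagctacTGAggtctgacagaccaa
Gpx4: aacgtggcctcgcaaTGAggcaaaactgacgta

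The promoters were searched for the core of the antioxidant response element, the site at which NRF2 acts, spelled TGACNNNGC and read on both strands, so that on the opposite strand it appears as GCNNNGTCA. RefSeq windows (GRCm38.p6) ran from 250 bases before to 50 bases after a start site, and 12 windows covered 9 of the 10 genes, Prdx6 having none. The core was found in windows of 2 genes, Sod1 and Prdx1. Among all 32851 promoter windows of this length, 4071 (12.4%) held it. In Sod1 the match began 56 bases before the start site (the window shown is chr16:90220660-90220759) and in Prdx1 133 bases before it (chr4:116685420-116685519). Both are shown on the plus strand, from 5′ to 3′, with the matched letters in capitals. A match describes these letters and does not show that a factor bound there.
Sod1: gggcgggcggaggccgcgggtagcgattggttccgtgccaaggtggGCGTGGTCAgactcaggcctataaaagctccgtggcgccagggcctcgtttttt
Prdx1: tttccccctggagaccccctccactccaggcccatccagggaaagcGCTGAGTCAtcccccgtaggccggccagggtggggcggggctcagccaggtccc

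The libraries held between 27957713 and 34920922 counts, and each of the 3 esculetin libraries was deeper than each vehicle library. Values within a gene are given as CPM, the depth-scaled read count, with each library total corrected for composition by TMM. Hepatocyte markers were abundant, as the tissue label requires: Alb, encoding serum albumin, stood at 60450 ± 1292 CPM in vehicle and 58357 ± 3588 CPM in esculetin livers (mean ± SD, n = 3), and 0 of the 10 hepatocyte markers had an unadjusted p under 0.05 in edgeR.

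Levels were compared between genes per kilobase of the canonical transcript. In vehicle livers Gpx1 was the most abundant of the 10 at 1254 ± 85.3 CPM per kb (SD, n = 3), followed by Cat at 1089 ± 66.0 and Prdx1 at 369 ± 28.4 CPM per kb. With this length these 3 transcripts stood clear of the others. Prdx6 (176 ± 11.7 CPM per kb), Gpx4 (119 ± 4.22), Prdx5 (93.4 ± 4.05), Sod1 (82.8 ± 5.63) and Prdx3 (69.7 ± 0.559) formed a middle range. The mitochondrial dismutase Sod2 was lower, at 30.4 ± 1.29 CPM per kb, and Gpx3, the secreted plasma peroxidase, was nearly silent at 1.55 ± 0.351 CPM per kb. On this length no gene of the vehicle group overlapped its neighbour in the order across the 3 libraries. In the esculetin group only Sod1 (100 ± 2.82 CPM per kb) and Prdx5 (99.1 ± 7.14) overlapped and traded places. The middle of the order depended on the length used: with the merged exons of all transcripts, which are longer for Prdx6 (9304 against 2696 bases) and Sod1 (8648 against 5315 bases), Prdx6 moved from rank 4 to 7 and Prdx3 from rank 8 to 5, while Gpx1, Cat, Prdx1, Sod2 and Gpx3 kept their ranks. Both lengths come from annotation, and the length of the transcripts present in these livers was not measured. A Sod1 transcript shorter than 5315 bases would raise its level per kb and could move it up the order.

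**Figure D1:**
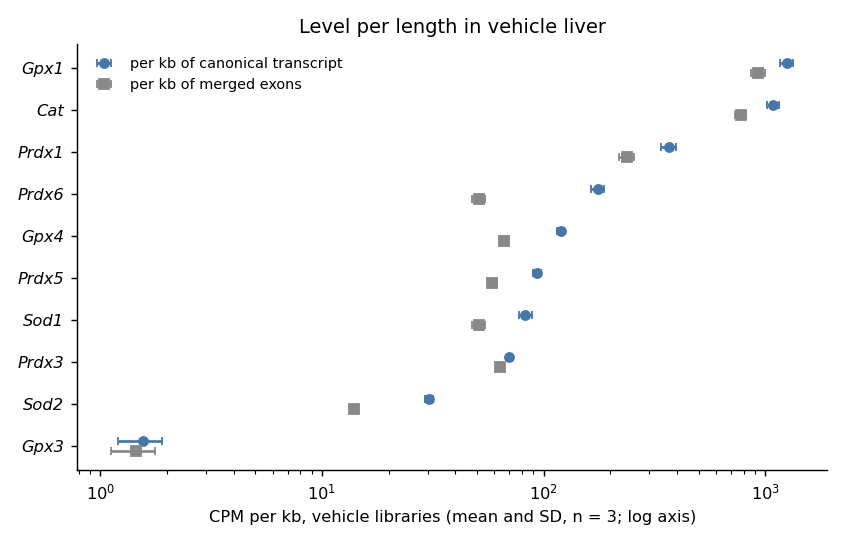
Mean level of the 10 genes in vehicle livers in CPM per kb (horizontal, log axis, bars SD, n = 3), per length of the canonical transcript (circles) and of the merged exons (squares). Gpx1 and Cat lead on both lengths and Gpx3 is lowest, at 1.55 CPM per kb of canonical transcript, whereas Prdx6 drops from 176 to 51.0 CPM per kb with merged exons.

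Across the 10 genes the estimated differences between the groups were small and had the same sign, although 5 had an edgeR unadjusted p of 0.05 or over. All 10 estimates were above 0, where 48.5% of the 14433 genes tested were, and the median log2 fold change of the 10 was 0.23 against -0.0080 over all genes tested. With 1 library left out, the median of the 10 was 0.16 at the lowest, without vehicle replicate 1. Without vehicle replicate 3 or esculetin replicate 2, 9 estimates were above 0 and that of Cat was below. In the quasi-likelihood test of edgeR, Gpx4, Sod1, Prdx6, Gpx1 and Prdx1 were higher in esculetin livers with an unadjusted p under 0.05, which is 5 of 10 beside 6.53% of all genes tested, and 0 of 10 were lower, beside 5.32%. In 7 genes every esculetin library lay above every vehicle library, beside 9.20% of all genes. No member, however, passed the study's own thresholds of an unadjusted p under 0.05 and a fold change over 1.5, which 452 genes (3.13%) passed. With the fold lowered to 1.2, Gpx4 and Sod1 passed, beside 8.80% of all genes. After Benjamini-Hochberg adjustment over all genes, 0 of 10 members and 6 genes in all (0.0416%) had an adjusted p under 0.05 in edgeR, and the lowest adjusted p of a member was 0.114, for Gpx4. This call depended on the setting. The adjusted p of Gpx4 was 0.000446 with DESeq2, where 193 genes in all were under 0.05, and 0.473 in edgeR without vehicle replicate 2. The members were listed with earlier results of these data known. They were measured in the same 6 liver pools and are not independent of each other, so the counts describe them and carry no p of their own. Because whole liver was sequenced, more RNA per hepatocyte and more hepatocytes per liver cannot be told apart. The 10 hepatocyte markers had a median log2 fold change of 0.024, with 7 above 0, and their relation to the members was not tested.

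**Figure D2:**
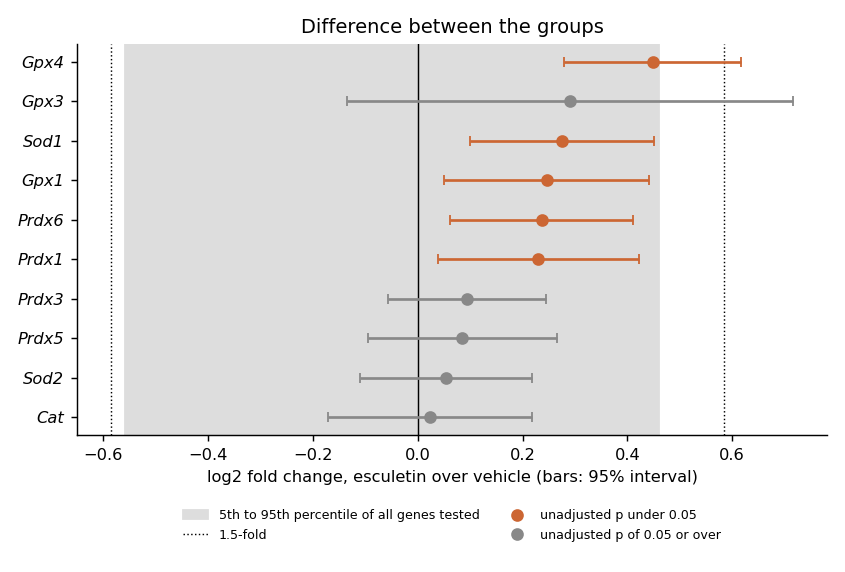
Log2 fold change of esculetin over vehicle for each gene (points) with its 95% interval (bars); orange marks an unadjusted p under 0.05, dotted lines 1.5-fold, and the grey band the 5th to 95th percentile of all 14433 genes tested. All 10 points are right of 0, Gpx4 farthest at 0.45, and only the intervals of Gpx4 and Gpx3 reach past 1.5-fold.

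Of the dismutases, Sod1 was higher in esculetin livers and Sod2 was not distinguished from vehicle. Sod1 encodes the copper-zinc enzyme of the cytosol (chr16:90017408-90027657, plus strand, GRCm39). It stood at 474, 427 and 419 CPM in the vehicle libraries and at 526, 522 and 550 CPM in the esculetin libraries. The esculetin libraries were all higher and closer together than the vehicle ones. The means were 440 ± 29.9 and 533 ± 15 CPM, a log2 fold change of 0.28 ± 0.079 (SE; 1.21-fold, 95% interval 1.07 to 1.37; edgeR unadjusted p = 0.00604, adjusted p = 0.240). Sod2 encodes the manganese enzyme of the mitochondrial matrix (chr17:13224095-13259591, plus strand). Its vehicle libraries held 189, 174 and 184 CPM and its esculetin libraries 182, 195 and 191 CPM, so that the groups overlapped. The log2 fold change of Sod2 was 0.054 ± 0.073 (1.04-fold, interval 0.927 to 1.16, edgeR unadjusted p = 0.476, adjusted p = 0.817). With 1 library left out the log2 fold change of Sod2 ranged from 0.024 to 0.083. With a correction for transcript length and GC content it was 0.13 (edgeR unadjusted p = 0.0973, adjusted p = 0.546). Scaf4 overlaps Sod1 on the opposite strand over 4217 exon bases and held 3.27% as many counts as Sod1. Reads assigned to neither gene are not part of this figure. The ratio of Sod1 to Sod2 within a library was 2.51, 2.46 and 2.28 in vehicle and 2.90, 2.68 and 2.88 in esculetin livers, without overlap. This pair was chosen after its values were seen and its difference was not tested.

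Catalase was the flattest of the 10. Cat encodes the heme enzyme that disposes of hydrogen peroxide inside peroxisomes (chr2:103284194-103316185, minus strand). The vehicle libraries held 2943, 2948 and 2647 CPM and the esculetin libraries 2689, 3081 and 2908 CPM. The highest and the second lowest libraries were both from esculetin livers. With means of 2846 ± 172 and 2893 ± 196 CPM the log2 fold change was 0.023 ± 0.087 (1.02-fold, interval 0.889 to 1.16, edgeR unadjusted p = 0.792, adjusted p = 0.947), and its sign turned when vehicle replicate 3 or esculetin replicate 2 was left out. The summed CPM of the 10 genes, to which Cat contributed most, was 6774, 6639 and 6514 in vehicle and 6982, 7631 and 7442 in esculetin livers, without overlap.

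**Figure D3:**
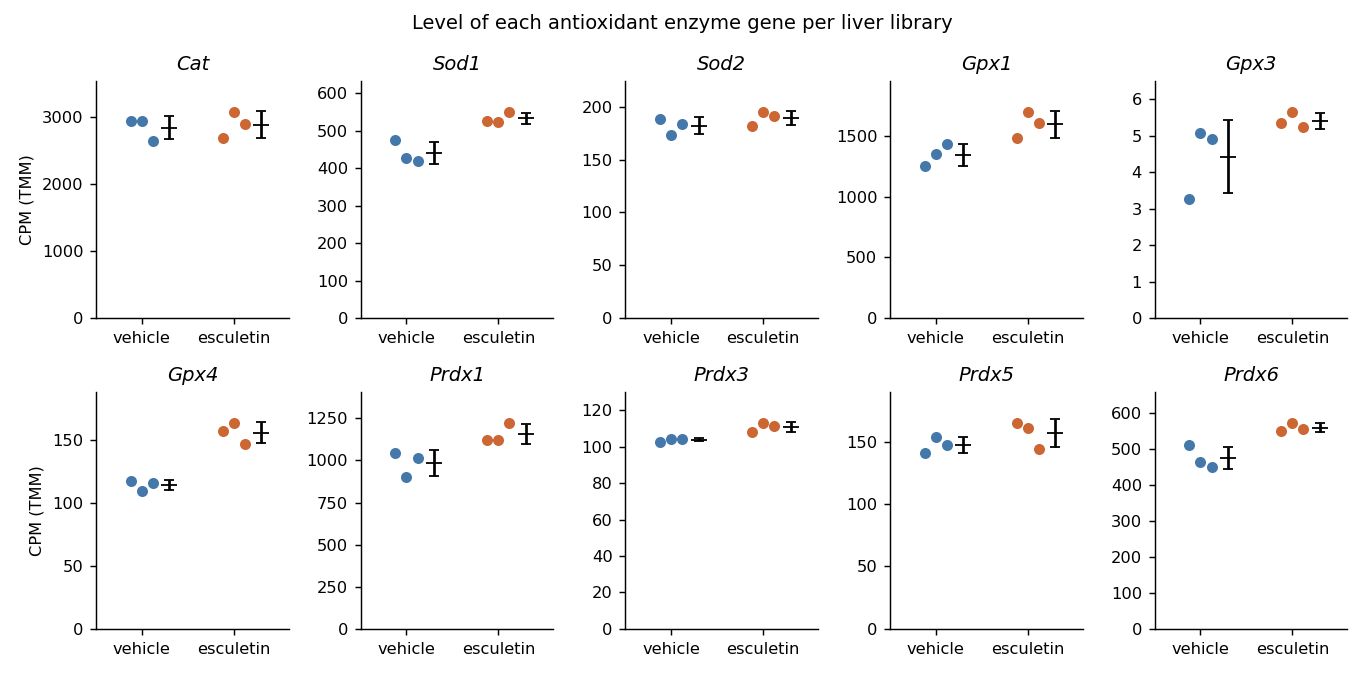
CPM of each gene in the 3 vehicle (blue) and 3 esculetin (orange) libraries, with the group mean and SD in black; every vertical axis starts at 0. The groups separate in 7 panels and overlap for Cat, Sod2 and Prdx5, and the separation relative to the level is widest for Gpx4, where 110 to 118 CPM face 147 to 164 CPM.

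The largest difference of the 10 was that of Gpx4. Its product is the selenoenzyme that reduces lipid hydroperoxides inside membranes and thereby holds back ferroptosis (chr10:79883000-79892273, plus strand). Gpx4 stood at 118, 110 and 116 CPM in the vehicle libraries and at 158, 164 and 147 CPM in the esculetin libraries. The gap between the groups was wider than the range within either of them. Means of 114 ± 4.05 and 156 ± 8.72 CPM gave a log2 fold change of 0.45 ± 0.075 (1.36-fold, interval 1.21 to 1.53, edgeR unadjusted p = 0.000159, adjusted p = 0.114), rank 20 of 14433 genes by p. The annotated processed pseudogene Gpx4-ps2, with which Gpx4 may share reads, received 496 to 820 counts per library, between 12.9% and 17.4% of those of Gpx4. With its counts added to those of Gpx4 the log2 fold change was 0.42 (edgeR unadjusted p = 0.000256, adjusted p = 0.132).

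Gpx1, the abundant selenium peroxidase of cytosol and mitochondria (chr9:108216102-108217546, plus strand), was at 1248, 1353 and 1430 CPM in vehicle and at 1478, 1696 and 1607 CPM in esculetin livers. The lowest esculetin library lay just above the highest vehicle library. Its means were 1344 ± 91.4 and 1594 ± 110 CPM, with a log2 fold change of 0.25 ± 0.087 (1.19-fold, interval 1.04 to 1.36, edgeR unadjusted p = 0.0189, adjusted p = 0.315). The unadjusted p was 0.0588 without vehicle replicate 1 and 0.0714 without esculetin replicate 2. Relative to Cat, the other hydrogen peroxide remover of high level, Gpx1 stood at ratios of 0.424, 0.459 and 0.540 in vehicle and 0.550, 0.550 and 0.553 in esculetin libraries. The esculetin ratios were almost equal while the vehicle ratios spread widely, and the pair, chosen after its values were seen, was not tested. Gm57050, which is absent from the genes counted, overlaps Gpx1 on the opposite strand over 1232 of its 1445 exon bases. Sod2, Gpx4, Prdx1 and Prdx6 overlap other such genes over shorter stretches.

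Gpx3 encodes the secreted peroxidase of plasma, which is made mainly in the kidney (chr11:54793279-54802424, plus strand). Its libraries held only 96 to 196 counts each, or 3.27, 5.06 and 4.92 CPM in vehicle and 5.35, 5.65 and 5.23 CPM in esculetin livers. All esculetin values were above all vehicle values, but vehicle replicate 1 was far below the other 5. The log2 fold change of 0.29 ± 0.19 (1.22-fold, interval 0.911 to 1.64, edgeR unadjusted p = 0.159, adjusted p = 0.591) was 0.11 when that library was left out. Tnip1 overlaps Gpx3 on the opposite strand with 1047 counts in all against 939 for Gpx3, and since the library kit does not mark strand, reads of the shared exons cannot be assigned to 1 gene with certainty.

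Of the 4 peroxiredoxins, Prdx1 and Prdx6 were higher with an unadjusted p under 0.05, and Prdx3 and Prdx5 did not pass it. Prdx1 encodes the abundant cytosolic thioredoxin peroxidase (chr4:116532123-116558398, plus strand). It was at 1045, 900 and 1012 CPM in vehicle and at 1122, 1122 and 1224 CPM in esculetin livers, with no overlap. Means of 986 ± 76.0 and 1156 ± 58.9 CPM gave a log2 fold change of 0.23 ± 0.086 (1.17-fold, interval 1.03 to 1.34, edgeR unadjusted p = 0.0234, adjusted p = 0.341). This call rested on single libraries, as the unadjusted p was 0.0963 without vehicle replicate 2 and 0.0816 without esculetin replicate 3.

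Prdx6, on chromosome 1 (chr1:161051417-161079098, minus strand), encodes the peroxiredoxin with 1 catalytic cysteine, which reduces phospholipid hydroperoxides and uses glutathione instead of thioredoxin. Vehicle libraries held 510, 464 and 449 CPM and esculetin libraries 549, 572 and 555 CPM. The esculetin values lay in a narrow band above all vehicle values. The log2 fold change of Prdx6 was 0.24 ± 0.078 (1.18-fold, interval 1.04 to 1.33, edgeR unadjusted p = 0.0129, adjusted p = 0.284), from 474 ± 31.6 to 559 ± 12.1 CPM.

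Prdx3 encodes the peroxiredoxin of the mitochondrial matrix (chr19:60852489-60863017, minus strand). At 103, 104 and 104 CPM in vehicle and 108, 113 and 111 CPM in esculetin livers its groups did not overlap, yet the step was small. Its log2 fold change was 0.095 ± 0.067 (1.07-fold, interval 0.962 to 1.19, edgeR unadjusted p = 0.191, adjusted p = 0.626). The ratio of Prdx1 to Prdx3 was 10.2, 8.66 and 9.70 in vehicle and 10.4, 9.92 and 11.02 in esculetin libraries, with overlap. Prdx5, whose product is found in mitochondria, peroxisomes and cytosol (chr19:6884065-6887792, minus strand), was at 141, 154 and 148 CPM in vehicle and 165, 161 and 144 CPM in esculetin livers. Esculetin replicate 3 lay among the vehicle values, and the log2 fold change was 0.085 ± 0.080 (1.06-fold, interval 0.937 to 1.202, edgeR unadjusted p = 0.314, adjusted p = 0.725). It ranged from 0.046 without esculetin replicate 1 to 0.145 without esculetin replicate 3. Trmt112 overlaps Prdx5 on the opposite strand and held 8.80% as many counts as Prdx5, which leaves out reads assigned to neither gene. Whether the cytosolic enzymes differed from the mitochondrial ones in their response was not tested. For 8 of the 10 genes the 95% interval ended below 1.5-fold, so changes of that size were outside what these libraries allow for all but Gpx4 and Gpx3.

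Sod1, Gpx4 and Prdx6 kept an unadjusted p under 0.05 in all 16 alternative settings. The ranges of the log2 fold change over the 6 fits with 1 library left out were 0.24 to 0.33 for Sod1, 0.41 to 0.49 for Gpx4 and 0.20 to 0.29 for Prdx6. With every library thinned to the smallest total, since the esculetin libraries were deeper, 5 members again had an unadjusted p under 0.05.

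**Figure D4:**
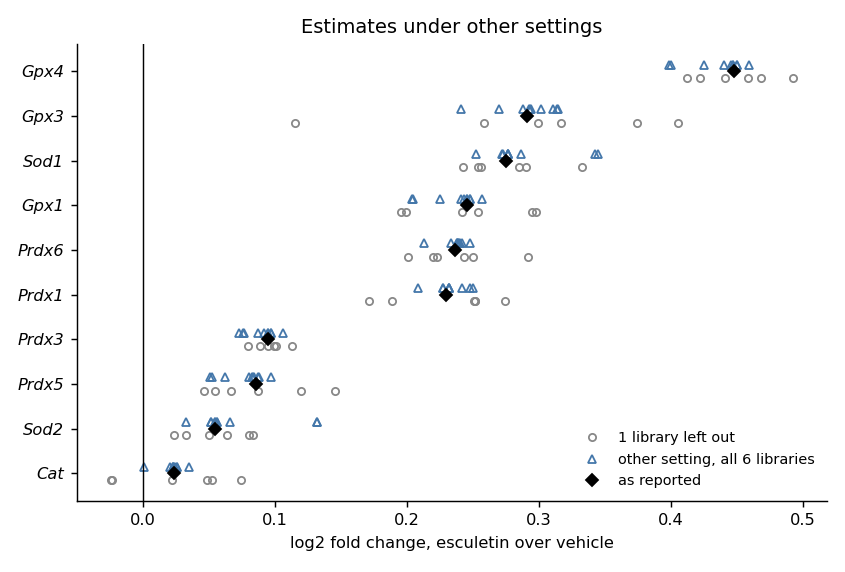
Log2 fold change of each gene as reported (diamonds), with 1 library left out (circles) and under the other settings with all 6 libraries (triangles). Gpx4 stays between 0.40 and 0.49 in all of them, and only Cat crosses 0, at -0.024 at the lowest.

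Other members of the same families were measured beside the 10. Of 8 such genes 6 were tested, and Gpx2 and Gpx5 had too few counts (4 and 9 in all). Prdx2, a cytosolic peroxiredoxin that is also abundant in red cells, was higher at 88.4 ± 1.19 against 76.2 ± 6.87 CPM (log2 fold change 0.21, edgeR unadjusted p = 0.0275, and 0.109 without vehicle replicate 2). Gpx7, a peroxidase of the endoplasmic reticulum without selenium, rose past both thresholds from 0.684 ± 0.336 to 1.44 ± 0.357 CPM (log2 fold change 1.07, edgeR unadjusted p = 0.0306, adjusted p = 0.366), at a level near 1 CPM, and its unadjusted p was 0.0839 without vehicle replicate 1. Sod3, the extracellular dismutase, stood at 17.2 ± 1.06 and 16.4 ± 3.00 CPM and Prdx4, the peroxiredoxin of the endoplasmic reticulum, at 90.6 ± 4.76 and 94.6 ± 5.25 CPM, neither with a p under 0.05. The median log2 fold change of the 6 was 0.21. The 2 higher genes stand beside 6.53% of all genes, and 0 to 2 of the 6 had an unadjusted p under 0.05 in edgeR when 1 library was left out, 0 without esculetin replicate 2.

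The thioredoxin system, which recharges most peroxiredoxins, had 3 of 10 tested genes with an unadjusted p under 0.05, all higher, beside 6.53% of all genes, and a median log2 fold change of 0.14. Srxn1, encoding sulfiredoxin, which repairs overoxidised peroxiredoxins, was at 29.2, 23.3 and 25.1 CPM in vehicle and 36.4, 38.9 and 31.5 CPM in esculetin livers (log2 fold change 0.46, edgeR unadjusted p = 0.00225, adjusted p = 0.183). Its groups did not overlap. Txn1, the cytosolic thioredoxin that serves Prdx1, stood at 142, 145 and 139 CPM against 168, 164 and 168 CPM (log2 fold change 0.23, edgeR unadjusted p = 0.00674, adjusted p = 0.242). The step for Txn1 was as large as that for Prdx1 and its libraries were tighter. Txnip, the inhibitor of thioredoxin, passed both thresholds (log2 fold change 0.78, edgeR unadjusted p = 0.0184), but its size came from esculetin replicate 3 at 104 CPM beside 44.9 and 48.2 CPM in the other esculetin libraries, and it was 0.29 without that library. The thioredoxin reductases Txnrd1 and Txnrd2 stood at 0.12 and 0.11 with overlap, while Txnrd3 at -0.34 and Sesn3 at -0.20 had lower estimates, all with an unadjusted p over 0.05. Every esculetin library lay below every vehicle library for Txnrd3.

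Glutathione synthesis, which feeds Gpx1 and Gpx4, gave nearly flat values. Gclc and Gclm, the subunits of its rate-limiting enzyme, had log2 fold changes of 0.059 and -0.0084, and Gsr, glutathione reductase, 0.062, all with an unadjusted p over 0.05. Of the 8 tested genes of this list 3 were higher with an unadjusted p under 0.05, beside 6.53% of all genes: Glrx5 at 0.28 (adjusted p = 0.255 in edgeR), Glrx3 at 0.28 (adjusted p = 0.311) and Glrx at 0.35 (adjusted p = 0.357). Glrx5 encodes a mitochondrial glutaredoxin of iron-sulfur cluster assembly. The remaining glutaredoxin of the list, Glrx2, stood at -0.015. The groups of Glrx overlapped, and without vehicle replicate 2 only 1 gene of the list had an unadjusted p under 0.05 in edgeR, Glrx standing at 0.106 and Glrx3 at 0.0751. The list median was 0.081.

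Among 9 genes of NADPH supply Idh2, the mitochondrial isocitrate dehydrogenase, was higher at 62.0 ± 3.40 against 50.9 ± 3.70 CPM (log2 fold change 0.29, edgeR unadjusted p = 0.00646, adjusted p = 0.242). The other 8, with G6pdx at -0.14 and Me1 at 0.062, had an unadjusted p over 0.05, and the median was 0.067. This count of 1 in 9 was near the share of all genes, of which 6.53% were higher and 5.32% lower. Without vehicle replicate 1, 3 genes of the list were under it, and without esculetin replicate 3, 2 genes. Nnt, the mitochondrial transhydrogenase that is disrupted in the C57BL/6J substrain, was at 0.865 ± 0.306 CPM in vehicle and 0.838 ± 0.0294 CPM in esculetin livers.

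Enzymes that make hydrogen peroxide or superoxide were set against those that remove it. The count of calls was near that of all genes, of which 6.53% were higher and 5.32% lower. Of 13 tested, Aox1 was higher (log2 fold change 0.34, edgeR unadjusted p = 0.0224, and 0.0843 without vehicle replicate 3) and Aox3, a liver aldehyde oxidase, was lower, at 826, 829 and 983 CPM in esculetin against 1091, 1421 and 1276 CPM in vehicle livers (log2 fold change -0.52, edgeR unadjusted p = 0.00102, adjusted p = 0.152). Uox, the peroxisomal urate oxidase, stood at 3404 ± 411 and 3392 ± 228 CPM. The list median was -0.020, and 1 gene of the list had an unadjusted p under 0.05 without replicate 2 or 3 of either group and 3 without replicate 1 of either group.

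For the selenium and metal supply of the enzymes, 1 of 10 tested genes, the copper chaperone Atox1, had an unadjusted p under 0.05 (log2 fold change 0.19, edgeR adjusted p = 0.371). This count was near the share of all genes, of which 6.53% were higher and 5.32% lower. The call of Atox1 held in 7 of 16 alternative settings but not without vehicle replicate 1 or 3 or esculetin replicate 1. Ccs, which loads copper into SOD1, stood at 123 ± 3.96 and 130 ± 2.25 CPM (edgeR adjusted p = 0.700). Selenop, the hepatic selenium carrier, stood at 4970 ± 153 and 4977 ± 133 CPM, and the list median was 0.063. Peroxisome assembly, on which catalase depends, had 2 of 15 genes with an unadjusted p under 0.05, Pex11a at 0.22 (edgeR adjusted p = 0.357) and Pex6 at 0.18 (edgeR adjusted p = 0.414), and a median of 0.043. This share was near that of all genes, of which 6.53% were higher and 5.32% lower, and the count was 0 without esculetin replicate 2 and 1 in each of the other 5 fits with 1 library left out.

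Larger differences were found in the NRF2 list, the inducible counterpart of the basal enzymes, chosen with earlier results of these data known. Of 12 tested genes 9 were higher with an unadjusted p under 0.05 in edgeR, beside 6.53% of all genes, and 0 were lower, beside 5.32%. Gstm1, Nqo1, Abcc3 and Gstm3 rose past both thresholds, by log2 fold changes of 1.45, 1.37, 1.17 and 0.99, and Gstm1 alone had an adjusted p under 0.05 (0.00669 in edgeR), which reached 0.106 among the 16 alternative settings. Gstm genes have close paralogs whose reads the counting could split. Ephx1 (0.40), Ftl1 (0.37), Ugdh (0.37), Fth1 (0.28) and Keap1 (0.25) were smaller and of the size of Gpx4 and Sod1, the ferritin genes having many processed pseudogenes. The calls of Ephx1 and Keap1 held in 10 and 12 of 16 alternative settings. Hmox1 at 12.7 ± 1.22 and 13.7 ± 1.47 CPM (edgeR adjusted p = 0.766) and Nfe2l2, which encodes NRF2 itself, at 68.4 ± 15.1 and 57.7 ± 5.88 CPM (edgeR adjusted p = 0.558) overlapped between the groups. The list median of 0.37 was above the 0.23 of the 10 enzymes, a difference that was not tested. The latter was 0.16 without vehicle replicate 1. The count and median of this list depend on how the lists were drawn, since genes often counted as NRF2 targets stand elsewhere above. Among them Gclc, Gclm, Txnrd1, Gsr, Me1, Pgd, Taldo1 and G6pdx had log2 fold changes from -0.14 to 0.12. None of these had an edgeR unadjusted p under 0.05, whereas Srxn1 (0.46), Txn1 (0.23) and Prdx1 (0.23) did.

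**Figure D5:**
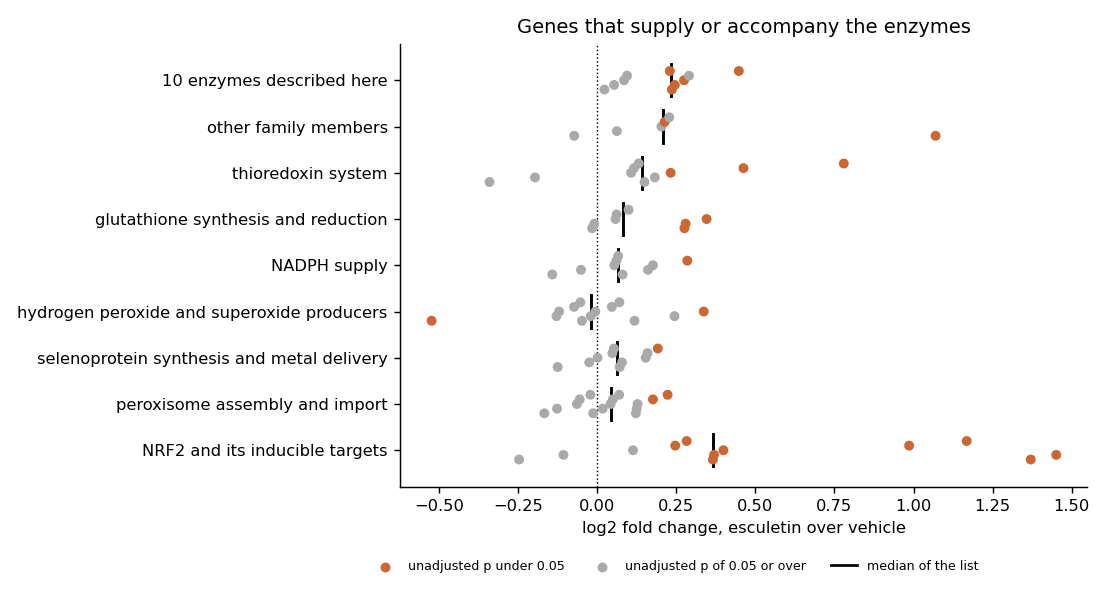
Log2 fold change of every tested gene (points, orange for an unadjusted p under 0.05) in the 10 enzymes and 8 related lists, with the list median as a black bar. The 10 enzymes all lie above 0 with a median of 0.23, the hydrogen peroxide and superoxide producers centre at -0.020, and the NRF2 list reaches 1.45.

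Over the 6 libraries the genes most like a member in log2 CPM, among 7235 genes of at least 10 CPM, were Atxn10 for Sod1 (Pearson r = 0.999), Rbp4 for Gpx4 (0.999), Abcc3 for Prdx6 (0.993) and Gpat4 for Prdx1 (0.991). The next were Pink1 and Arl8b for Sod1, Vti1b and Yipf4 for Gpx4, Sdhc and Hibadh for Prdx6, and Lipc and Akr1c13 for Prdx1. These coefficients describe 6 points that share the group difference and were picked as the highest of many. The matched pattern did not imply a matched size, since the log2 fold change was 0.14 for Rbp4 and 1.17 for Abcc3.

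Markers of other liver cells were read beside the members, and their counts of calls at an unadjusted p under 0.05 stand beside the 6.53% of all genes that were higher and the 5.32% that were lower. Erythroid cells are rich in Cat, Gpx1 and Prdx2. Summed erythroid markers ranged from 127 to 155 CPM in vehicle and from 114 to 178 CPM in esculetin livers, of the 5 tested Hba-a2 was higher and Alas2, the largest part of the sum in each library, lower, and the defining markers Slc4a1 and Epb42 had 20 and 0 counts in all 6 libraries together. Of those 5, 4 had a positive log2 fold change, among them Hba-a1 at 0.60 with an unadjusted p over 0.05, and their median was 0.24. Kupffer cell and macrophage markers summed to 403 to 521 CPM and 411 to 433 CPM, with Cd68 lower (1 of 10). Of these 10 markers 2 had a positive log2 fold change, the median was -0.11, and in Cd68, Csf1r and Timd4 every esculetin library lay below every vehicle library. Endothelial markers summed to 199 to 246 CPM and 208 to 245 CPM, with 0 of 8 under an unadjusted p of 0.05 in edgeR. Stellate markers summed to 333 to 402 CPM and 296 to 392 CPM, with Des higher (1 of 8), a positive log2 fold change in 2 of 8 and a median of -0.12. Cholangiocyte markers summed to 39.8 to 80.4 CPM and 30.3 to 45.7 CPM, with Spp1 lower (1 of 5), a positive log2 fold change in 4 of 5 and a median of 0.24. Neutrophil and lymphocyte markers summed to 3.34 to 4.27 CPM and 3.08 to 9.36 CPM, with S100a9 and Cd79a higher (2 of 6), a positive log2 fold change in 5 of 6 and a median of 0.32. Adipocyte markers summed to 2.21 to 2.72 CPM and 2.19 to 3.46 CPM, with Cfd higher (1 of 2). The other tested adipocyte marker, Cidec, had a log2 fold change of -0.47 with an unadjusted p over 0.05. The sums overlapped between the groups for every list, and their part in the values of the 10 enzymes was not tested.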

How the data were processed

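Paired-end reads of NEBNext Ultra libraries were aligned by the authors to GRCm39 with HISAT2 2.2.1 and counted per gene with featureCounts, and the deposited values are whole-number counts without normalization. Annotation release, strand setting and treatment of reads mapping to several genes are not given in the sources used here. Columns were assigned to samples by the diet or dose and the number in their names. A GENCODE annotation (release M39, GRCm39) gave symbols for 54749 of 55357 identifiers, exon lengths and coordinates. The 10 members and all gene lists were chosen with earlier results of these data known. Genes passing filterByExpr (14433) were normalized with TMM and compared with edgeR 4.0.16 (quasi-likelihood F test, R 4.3.3), 3 libraries against 3, with Benjamini-Hochberg adjustment over all genes tested. The study used limma with an unadjusted p under 0.05 and a fold change over 1.5, and these thresholds were kept. Each standard error was obtained from the estimate and its F statistic, as estimate over root F. The script was tested on simulated data. Named genes are all members, each related gene with an unadjusted p under 0.05 and the 3 genes most like each member with such a p, which for Gpx1 are not reported here; other genes were named for their role after their values were seen. Alternatives were DESeq2 1.42.0, limma-voom 3.58.1, other size factors, filters and folds, each library left out and the replicate number as a block. Length and GC correction, thinning and adding pseudogene counts were chosen after seeing the data. Replicate pairs differed by a chi-square per gene of 24.2 or more, where sampling noise gives about 1, so none was a repeated sequencing of 1 library. Separate libraries made from the same RNA cannot be recognised in this way.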

Additional observations from a re-analysis of the deposited data

How the results depend on the processing

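The counts for the 10 enzymes held in most settings. With DESeq2 and with no filter on low counts, 1 member (Gpx4) had an adjusted p under 0.05 (0.000446 and 0.000608), where edgeR gave 0, and over all settings its adjusted p ranged from 0.000446 to 0.473. The number of all genes past both thresholds was 452, 776 with no filter and 1270 with a fold over 1.2, at which 2 members passed, and 411 to 588 with 1 library left out. In those 6 fits 4 to 5 members had an unadjusted p under 0.05, 0 passed both thresholds and 0 had an adjusted p under 0.05. The adjusted calls over all genes were 193 with DESeq2, 477 with no filter, 15 with the replicate block and 2 to 45 with 1 library left out (2 without vehicle replicate 2, 45 without vehicle replicate 1, 15 without vehicle replicate 3), against 6. The log2 fold change of Cat reversed to -0.024 without vehicle replicate 3 and to -0.023 without esculetin replicate 2, and lay between -0.024 and 0.074 with 1 library left out. Same-numbered libraries did not deviate together (correlations of -0.069, -0.011 and 0.0027). This cannot tell whether the numbers pair the samples in some other way. With the replicate block 399 genes and 0 members passed both thresholds and 5 members had an unadjusted p under 0.05. With the block and the length and GC correction, 4 members did, Gpx1 having an edgeR unadjusted p of 0.0672. With total counts in place of TMM the median of all genes was -0.030, the share of higher genes among those past both thresholds was 38.9% against 43.8%, and all 10 members kept a positive sign. Gpx3 rests on 939 counts in all, the fewest of the 10. Of the related genes, the calls of Atox1 and Pex6 held in 7 of 16 settings each, Ephx1 in 10, Prdx2, Keap1 and Aox1 in 12, Glrx and Pex11a in 13, Glrx3 and Txnip in 14, Txn1 and Fth1 in 15, Gpx7 in 12 of 15, and the others in all 16. The causes of these changes were not tested.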
